A study of Rattus norvegicus with 8 samples.

Results

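The flavin-containing monooxygenase genes *Fmo1* (ENSRNOG00000034191), *Fmo2* (ENSRNOG00000003510), *Fmo4* (ENSRNOG00000003400), and *Fmo5* (ENSRNOG00000018076) were picked by symbol, as 4 of the 32883 genes in the table of rat Achilles tendon RNA, and all 4 had enough reads to be tested. The right Achilles tendons came from 8 wild-type rats, 4 of which ran on a treadmill for 1 h and were killed 12 h later (12 h p.r.). The other 4 stayed in their cages and were killed together with the runners (NC). By the study's methods, the treadmill rats were male Sprague-Dawley rats 8 to 10 weeks old, and the run was uphill. Each tendon gave 1 library of polyadenylated RNA, so each value is a whole tissue with all its cell types.

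Flavin-containing monooxygenases are enzymes of the endoplasmic reticulum membrane. They carry the flavin FAD, take electrons from NADPH, and insert 1 atom of oxygen into soft nucleophiles such as the nitrogen and sulfur of amines, thioethers, and thiols. When the oxygenated flavin finds no substrate it can release hydrogen peroxide, and for this reason the family is often listed with genes of reactive oxygen production. FMO1 also turns hypotaurine into taurine, FMO2 is best known from the lung, FMO5 carries out Baeyer-Villiger oxidations of ketones, and FMO4 is the least characterized of the 4.

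In the RefSeq gene order of the rat assembly GRCr8, *Fmo4*, *Fmo1*, *Fmo2*, and *Fmo6* stand side by side on chromosome 13 in this order, with no other protein-coding gene between them. *Fmo5* stands apart on chromosome 2, between *Chd1l* and *Prkab2*. A promoter sequence, from 250 bases before to 50 bases after the gene start, was matched for 3 of the 4 members, *Fmo1*, *Fmo2*, and *Fmo5*. They are shown because *Fmo1* and *Fmo2* are neighbors whose RNA ratio did not overlap between the groups, as given below, and *Fmo5* is the member outside the block. The sequences are from RefSeq (GRCr8) and read 5′ to 3′ in the direction of the gene. Capitals mark a CCAAT box (CCAAT) or a glucocorticoid receptor half-site (TGTTCT), on either strand.
*Fmo1*, chr13:77747617-77747916, minus strand: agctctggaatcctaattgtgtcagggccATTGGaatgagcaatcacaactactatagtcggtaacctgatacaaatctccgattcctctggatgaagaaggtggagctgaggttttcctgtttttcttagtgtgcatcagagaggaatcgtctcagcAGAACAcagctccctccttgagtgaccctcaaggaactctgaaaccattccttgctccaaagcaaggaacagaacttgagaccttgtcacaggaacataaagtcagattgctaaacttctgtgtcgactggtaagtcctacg
*Fmo2*, chr13:77777485-77777784, minus strand: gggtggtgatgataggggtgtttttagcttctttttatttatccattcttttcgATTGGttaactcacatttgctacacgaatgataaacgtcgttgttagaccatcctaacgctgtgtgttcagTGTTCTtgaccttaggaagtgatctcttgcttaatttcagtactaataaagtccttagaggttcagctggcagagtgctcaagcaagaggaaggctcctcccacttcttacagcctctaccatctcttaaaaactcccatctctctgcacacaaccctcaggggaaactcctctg
*Fmo5*, chr2:187910714-187911013, plus strand: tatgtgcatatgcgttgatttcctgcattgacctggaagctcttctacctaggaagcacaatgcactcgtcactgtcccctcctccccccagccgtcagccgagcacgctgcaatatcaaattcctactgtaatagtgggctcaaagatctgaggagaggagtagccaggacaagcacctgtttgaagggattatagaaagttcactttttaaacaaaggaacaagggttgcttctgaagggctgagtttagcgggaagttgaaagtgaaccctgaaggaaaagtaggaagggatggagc

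The *Fmo1* window held 1 CCAAT match 221 bases before the start and 1 half-site match 92 bases before it. The *Fmo2* window held 1 of each as well, 196 and 125 bases before the start, and the matches do not overlap each other. The *Fmo5* window held neither. These short motifs are common, with CCAAT in 37.5% and TGTTCT in 20.7% of the 33469 promoter windows of the same length. No match to a TATA box (TATAAA, in 14.2% of windows), a GC box (GGGCGG, 33.1%), an E-box (CACGTG, 6.42%), or an AP-1 element (TGANTCA, 7.33%) was present in the 3 windows. A match is a description of the letters only, and *Fmo1* and *Fmo2* held the same pair of motifs.

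The 8 libraries held between 7350509 and 12951397 counted reads, with 7350509 to 10648648 at 12 h p.r. and 8385779 to 12951397 in the NC group. All 8 tenocyte marker genes were expressed in these tendons. The library of 12 h p.r. replicate 3 stood apart, since 9 skeletal muscle marker genes summed to 56940 CPM (reads per 1e6 of the scaled library) in it and to between 2426 and 10830 CPM in the other 7 rats. Its tenocyte marker sum was the lowest, 13930 CPM, with the rest between 24020 and 43810 CPM. Cartilage and bone markers were highest in NC replicate 3, at 1282 CPM, and next highest in 12 h p.r. replicate 1, at 487.9 CPM. In such bulk samples, fewer cells of a type and less RNA per cell cannot be told apart.

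Per length, the levels of the 4 members had a fixed order at the top. Expression as FPKM (fragments per kilobase and per 1e6 reads, as the authors deposited it) averaged 27.4 ± 3.11 for *Fmo1*, 14.6 ± 4.80 for *Fmo2*, 3.69 ± 0.805 for *Fmo4*, and 3.24 ± 0.878 for *Fmo5* in the NC rats (SD, n = 4). At 12 h p.r. the same means were 25.8 ± 8.35, 6.59 ± 2.71, 2.60 ± 0.670, and 3.93 ± 0.908 FPKM (SD, n = 4). *Fmo1* was above *Fmo2* in 8 of 8 rats, and *Fmo2* was above *Fmo4* and *Fmo5* in 8 of 8 rats. *Fmo4* and *Fmo5* did not keep an order, with *Fmo4* higher in 3 of 8 rats. Among the 13937 genes tested, *Fmo1* was at the 79.7th percentile of mean log2 CPM, *Fmo2* at the 47.4th, *Fmo5* at the 28.1st, and *Fmo4* at the 26.6th.

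*Fmo2* had the largest fitted fold change of the 4. Its level at 12 h p.r. was 14.0, 9.09, 20.8, and 9.48 CPM in replicates 1 to 4, and in the NC group it was 34.2, 19.0, 23.9, and 40.3 CPM. Thus, 3 of the 4 runners lay below every control rat, and only the muscle-rich replicate 3 lay above the lowest control. On average, *Fmo2* RNA at 12 h p.r. was 0.453-fold that of the NC group (95% interval 0.276 to 0.744), a log2 fold change of −1.14 ± 0.32 (SE). The unadjusted p value was 0.00565 and the adjusted one 0.432, by the quasi-likelihood test of edgeR with the Benjamini-Hochberg method applied to every gene in the fit, so *Fmo2* was not called at 0.05. The Wald test of DESeq2 gave an adjusted p value of 0.0528, and an exact 2-sided permutation test over the 8 rats gave p = 0.0571, where 0.0286 is the smallest value possible. The counts behind these values ran from 69 to 474 reads per rat. Counting error was at most 12.0% of the level, while the rats of a group differed by a coefficient of variation of 40.9% at 12 h p.r. and 32.9% in the NC group. *Fmo2* was thus among the more variable genes, with a within-group SD at the 86.8th percentile of all genes tested.

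Leaving out 1 rat at a time kept *Fmo2* lower at 12 h p.r. in all 8 fits, with a log2 fold change between −1.44, without 12 h p.r. replicate 3, and −0.95, without NC replicate 4. Without the muscle-rich replicate 3 the SE was 0.28 and the adjusted p value of edgeR was 0.331. When the muscle markers of each rat entered the fit as a covariate, the change was −1.16 ± 0.33 (adjusted p = 0.309, edgeR).

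For *Fmo1*, the most abundant of the 4, no change was detected at this spread between rats. It stood at 82.6, 35.8, 68.1, and 56.2 CPM in 12 h p.r. replicates 1 to 4 and at 70.8, 56.5, 59.4, and 69.7 CPM in the NC rats. The runners therefore held both the highest and the lowest value, and enclosed all the controls. The log2 fold change was −0.08 ± 0.22 (SE), with a 95% interval of −0.58 to 0.42 (adjusted p = 0.930, edgeR), so ratios from 0.668- to 1.34-fold are within the error. The spread among runners was a coefficient of variation of 32.6%, against 11.2% among controls. The sign rested on 1 rat, because without 12 h p.r. replicate 2, the rat at 35.8 CPM, the log2 fold change was 0.10. That rat also had the lowest level of the 8 adipocyte markers, at a sum of 3339 CPM where the others had 4857 to 8780 CPM, and the part of this in the *Fmo1* level was not tested. None of the 8 adipocyte markers had an unadjusted p value under 0.05 between the groups (edgeR).

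*Fmo4*, at 8.02, 4.08, 6.31, and 6.48 CPM in 12 h p.r. replicates 1 to 4, was at 9.14, 10.7, 6.12, and 9.26 CPM in the NC group. The groups overlapped through NC replicate 3, the lowest control, which lay below 3 of the 4 runners. The log2 fold change of −0.49 ± 0.24 (SE) had a 95% interval of −1.04 to 0.06 and did not pass the test (unadjusted p = 0.0733, adjusted p = 0.564, edgeR). NC replicate 3 is also the library with the most cartilage and bone RNA, and the part of this in the *Fmo4* level was not tested. With 1 rat left out, the log2 fold change ran from −0.64, without NC replicate 3, to −0.34, without 12 h p.r. replicate 2. Only 31 to 114 reads per rat were counted, which gives a counting error of up to 18.0%.

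*Fmo5* differed in sign from the others, at 7.51, 7.11, 11.5, and 9.29 CPM in 12 h p.r. replicates 1 to 4 against 8.90, 5.52, 9.06, and 5.61 CPM in the NC rats. The groups overlapped, with 2 runners above every control and no runner below them all. The log2 fold change was 0.28 ± 0.24 (SE), with a 95% interval of −0.26 to 0.82 (adjusted p = 0.742, edgeR), so it did not pass the test. The highest level was that of the muscle-rich 12 h p.r. replicate 3, and without it the log2 fold change was 0.13.

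**Figure D1:**
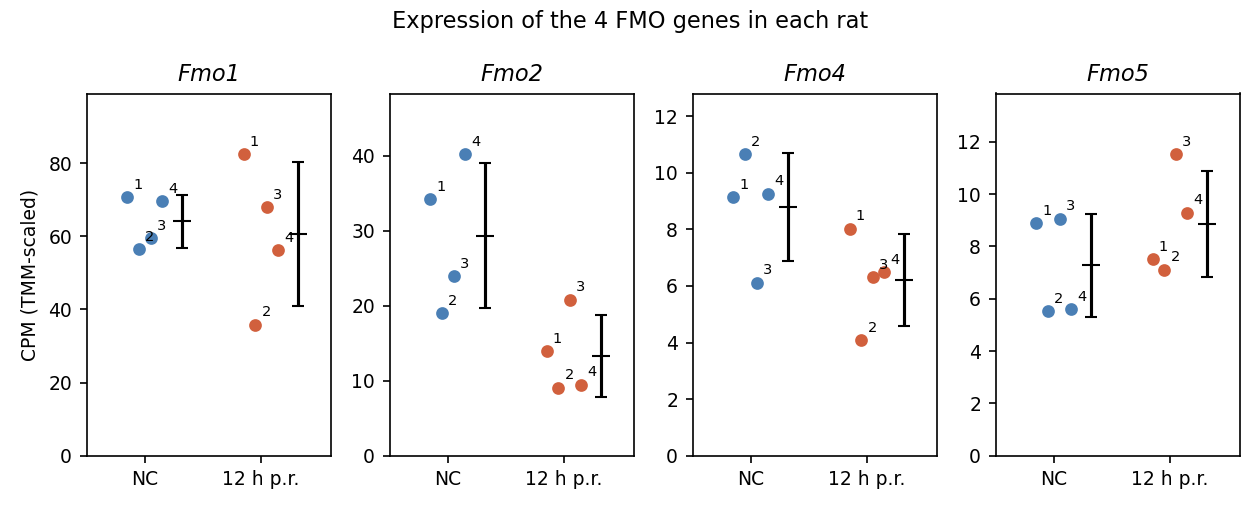
Level of *Fmo1*, *Fmo2*, *Fmo4*, and *Fmo5* in CPM (reads per 1e6 of the TMM-scaled library) in each of the 4 NC rats (blue) and 4 rats at 12 h p.r. (red), with replicate numbers beside the points and the group mean ± SD in black. Each panel has its own axis from 0. For *Fmo2*, 3 of the 4 runners lie below all control rats, while the groups overlap in all 4 panels.

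Of the 4 members, 0 had an adjusted p value under 0.05 by edgeR (0.00718% of all genes tested passed) and 0 by DESeq2 (0.699% passed). At an unadjusted p value under 0.05, 1 of the 4, *Fmo2*, passed with edgeR, where 9.51% of all genes did. None of the 4 had groups without overlap, which 6.06% of all genes had. *Fmo1*, *Fmo2*, *Fmo4*, and *Fmo6* are genes that the study itself picked out as down-regulated, in rats killed directly after the run and compared with NC rats. Those runners were not analysed here, and whether the control rats are the same was not settled, so a count of the directions of these genes is not taken as independent evidence.

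The level of one member relative to another in the same rat does not depend on library scaling, and it was compared between the groups for all 6 pairs. The log2 CPM of *Fmo1* exceeded that of *Fmo2* by 1.69 to 2.52 at 12 h p.r. and by 0.78 to 1.55 in the NC group, so the ranges did not overlap. The mean difference between the groups was 0.99 (exact permutation test, 2-sided, p = 0.0286, and 0.0858 after Benjamini-Hochberg adjustment over the 6 pairs). *Fmo2* exceeded *Fmo5* by 0.03 to 0.85 at 12 h p.r. and by 1.35 to 2.74 in the NC rats, again without overlap, and this difference was −1.41 (exact permutation test, p = 0.0286, adjusted 0.0858). As 0.0286 is the smallest p that 4 rats against 4 allow, a pair could have passed 0.05 after adjustment only if at least 4 of the 6 had reached it.

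The other 4 pairs overlapped between the groups. *Fmo2* against *Fmo4* differed by −0.65, *Fmo4* against *Fmo5* by −0.76, and *Fmo1* against *Fmo4* by 0.34, each with an exact permutation p of 0.143. *Fmo1* against *Fmo5* differed by −0.42 (exact permutation p = 0.229). All 6 pairs share genes with one another, and both pairs without overlap contain *Fmo2*.

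Both differences kept their sign without any 1 rat, between 0.87 and 1.15 for *Fmo1* against *Fmo2* and between −1.60 and −1.14 for *Fmo2* against *Fmo5*. With 1 rat left out, p moves in steps of 0.0286 over the 35 splits of 3 against 4, and it became 0.0571 for *Fmo1* against *Fmo2* without 12 h p.r. replicate 1 or 4 or NC replicate 1, 3, or 4, and for *Fmo2* against *Fmo5* without 12 h p.r. replicate 4.

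**Figure D2:**
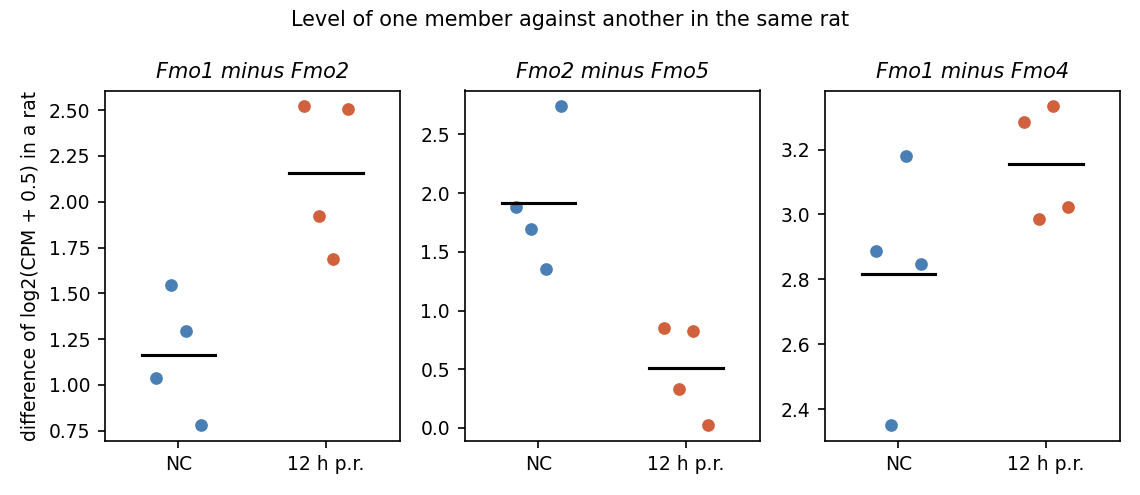
Difference in log2(CPM + 0.5) between a pair of members in the same rat, for NC (blue) and 12 h p.r. (red), with 1 point per rat and the group mean as a line. The rats at 12 h p.r. lie above all NC rats for *Fmo1* minus *Fmo2* and below them for *Fmo2* minus *Fmo5*, while *Fmo1* minus *Fmo4* overlaps.

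In FPKM, the same contrast appears as the make-up of the 4 genes. *Fmo1* made 65.9 ± 4.99% of the summed FPKM of the 4 members at 12 h p.r. and 56.4 ± 2.94% in the NC group (SD, n = 4), with ranges of 61.7 to 72.2% and 53.1 to 59.7%. *Fmo2* made 16.9 ± 3.99% after running and 29.2 ± 5.27% in the controls, with ranges of 13.2 to 21.9% and 23.3 to 35.6%. For both genes the ranges stayed apart, in contrast to *Fmo4*, at 6.76 ± 0.844% and 7.69 ± 2.29%, and *Fmo5*, at 10.5 ± 2.60% and 6.72 ± 1.99%. The FPKM of *Fmo1* was 2.82 to 5.12 times that of *Fmo2* in the runners and 1.49 to 2.57 times that of *Fmo2* in the controls. The summed FPKM of the 4 members overlapped between the groups, at 39.0 ± 11.2 at 12 h p.r. and 48.9 ± 7.92 in the NC rats. These shares come from the same counts as the pair comparisons and are not further evidence for them.

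**Figure D3:**
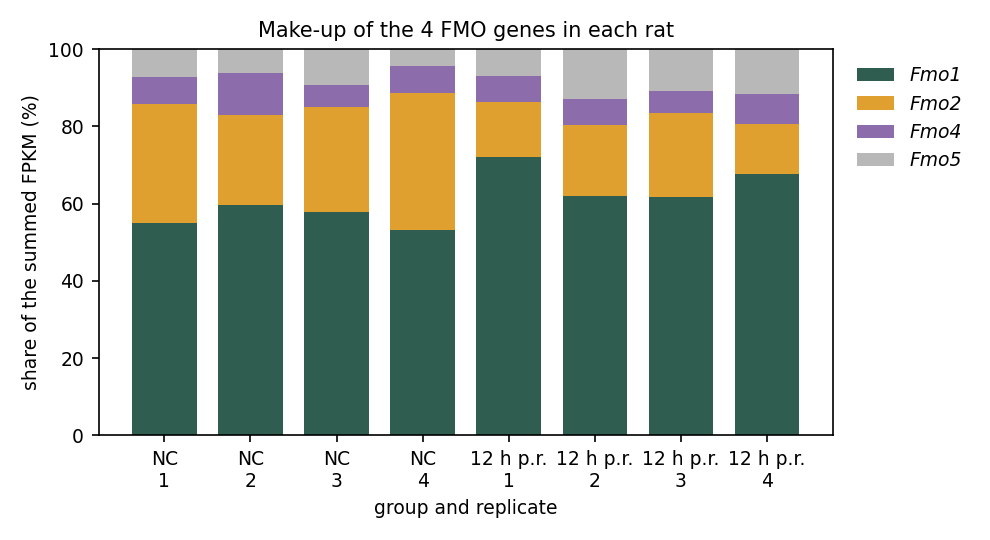
Share of *Fmo1*, *Fmo2*, *Fmo4*, and *Fmo5* in their summed FPKM (%) in each rat, with the 4 NC rats on the left and the 4 rats at 12 h p.r. on the right. The *Fmo2* segment takes 23.3 to 35.6% in the NC rats and 13.2 to 21.9% at 12 h p.r., and the *Fmo1* segment is the largest in every rat.

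Among other family genes, *Fmo6* (ENSRNOG00000049851) was rare, with 9 to 29 reads per rat. It was at 2.20, 1.84, 1.07, and 0.845 CPM in 12 h p.r. replicates 1 to 4 and at 2.00, 2.33, 1.59, and 2.46 CPM in the NC rats, with overlap. Its log2 fold change was −0.50 ± 0.34 (adjusted p = 0.675, edgeR). *Fmo9* and *Fmo13* had 0 reads in all 8 rats. *Fmo2* stood at rank 175 of the 13937 genes when ordered by p value.

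Along chromosome 13, the log2 fold changes in gene order were −0.49 for *Fmo4*, −0.08 for *Fmo1*, −1.14 for *Fmo2*, and −0.50 for *Fmo6*, whereas *Fmo5* on chromosome 2 had 0.28. These 4 were below 0, as were 45.8% of all genes tested, but *Fmo1* changed sign without 12 h p.r. replicate 2. Reads shared between these related neighbors could be divided differently by other counting rules, and how the authors treated such reads is not given in the sources used here.

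**Figure D4:**
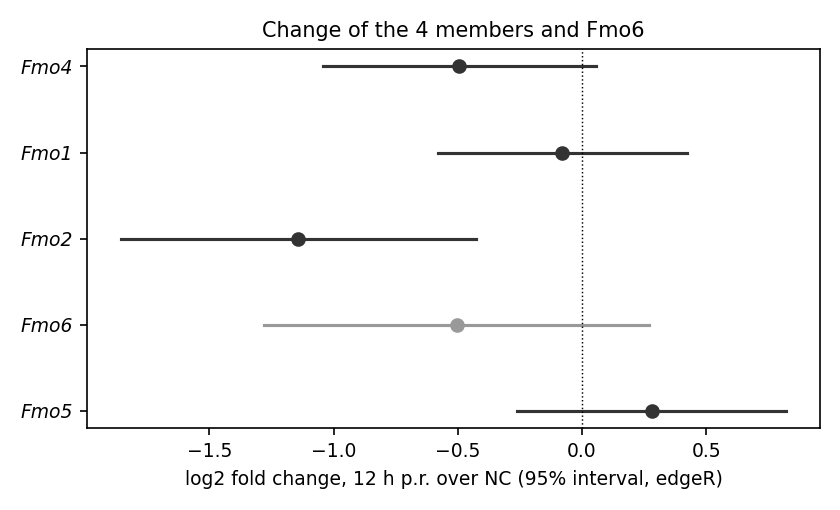
log2 fold change of 12 h p.r. over NC, with the 95% interval of the quasi-likelihood test of edgeR (4 rats per group), for the members (black) and for *Fmo6* (gray), ordered from the top as on chromosome 13 with *Fmo5* last. The interval of *Fmo2* lies below 0, and the others include 0.

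The enzymes that supply or accompany the family were taken from 7 lists, in which 66 of 78 genes had enough reads. By edgeR, 0 of the 66 had an adjusted p value under 0.05. At an unadjusted p value under 0.05, 2 were higher, where 5.44% of all genes were, and 7 were lower. These 9 are 13.6% of the list genes against 9.51% of all genes, and the lower ones alone are 10.6% against 4.08%. DESeq2 called 1 of them, *Gsta1*. The median log2 fold change was −0.03 over the lists and 0.02 over all genes tested.

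For NADPH, the electron donor of the family, 1 of 11 tested genes was higher at an unadjusted p under 0.05. This was *Pgls*, an enzyme of the oxidative pentose phosphate pathway, with a log2 fold change of 0.25 ± 0.10 (adjusted p = 0.498, edgeR). It was at 30.8 to 39.6 CPM at 12 h p.r. and at 27.2 to 32.8 CPM in the NC rats, with overlap. For the cofactor FAD, 1 of 5 genes was lower at this level, the mitochondrial folate and FAD carrier *Slc25a32*, at −0.40 ± 0.13 (adjusted p = 0.433). Its levels were 15.5 to 19.5 CPM in the runners and 18.7 to 25.1 CPM in the controls.

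The microsomal P450 system, the other main oxygenase system of the same membrane, had 1 of 12 genes higher at an unadjusted p under 0.05 and 0 lower. This was *Cyp2e1*, a P450 of ethanol and small molecules, at 1.25 ± 0.50 (adjusted p = 0.490). It stood at 0.790 to 3.69 CPM after running and 0.529 to 1.04 CPM in the controls, with its highest value in the muscle-rich 12 h p.r. replicate 3, and without that rat the log2 fold change was 0.80. *Por*, the reductase that feeds these P450 enzymes, was at 0.27 ± 0.16 (adjusted p = 0.636).

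Of the 13 other oxidizing and hydrolyzing enzymes, 2 were lower at an unadjusted p under 0.05. *Xdh*, the xanthine oxidoreductase, was at −0.38 ± 0.17 (adjusted p = 0.518), and *Maob*, a flavin enzyme that oxidizes amines in the mitochondrial outer membrane, was at −0.39 ± 0.17 (adjusted p = 0.524, edgeR). Both overlapped between the groups.

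Among 12 conjugating enzymes, 3 were lower at an unadjusted p under 0.05 and none higher, and all 3 were glutathione S-transferases. The other glutathione S-transferases of this list did not pass this level, with log2 fold changes from −0.23 to 0.27 on both sides of 0. *Gsta1* was at 87.8, 53.0, 56.1, and 65.1 CPM in 12 h p.r. replicates 1 to 4 and at 156.7, 93.7, 95.2, and 115.0 CPM in the NC rats. Its groups did not overlap, as for 2.55% of all genes tested in this direction, and its log2 fold change was −0.82 ± 0.21 (adjusted p = 0.402 with edgeR and 0.0368 with DESeq2). *Gstm1* was at 31.1 to 32.9 CPM in the runners and 35.2 to 44.6 CPM in the controls, also without overlap, at −0.33 ± 0.09 (adjusted p = 0.432, edgeR). The third was *Gsta4*, named here after its value was seen, at −0.59 ± 0.23 (adjusted p = 0.489). These transferases belong to families of close relatives, so their counts are uncertain where reads match more than 1 of them.

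No gene passed an unadjusted p of 0.05 among 9 tested NADPH oxidase genes, whose products make superoxide, or among 4 tested genes of the taurine pathway, in which FMO1 takes part. The median log2 fold change was −0.26 in the first list, with 7 of 9 genes below 0, and 0.18 in the second, with 3 of 4 genes above 0. Both medians depended on single rats. With 1 rat left out, the first ran from −0.39 (without 12 h p.r. replicate 4) to −0.10 (without 12 h p.r. replicate 3), and it was −0.14, −0.12, and −0.16 without 12 h p.r. replicate 2, NC replicate 3, and NC replicate 4. It was −0.08 with no filter beyond 1 count and −0.06 with limma on log2(FPKM + 1). The second ran from 0.10 (without 12 h p.r. replicate 4) to 0.30 (without 12 h p.r. replicate 2), and it was 0.12 without 12 h p.r. replicate 3 or NC replicate 4 and with limma on log2(FPKM + 1).

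**Figure D5:**
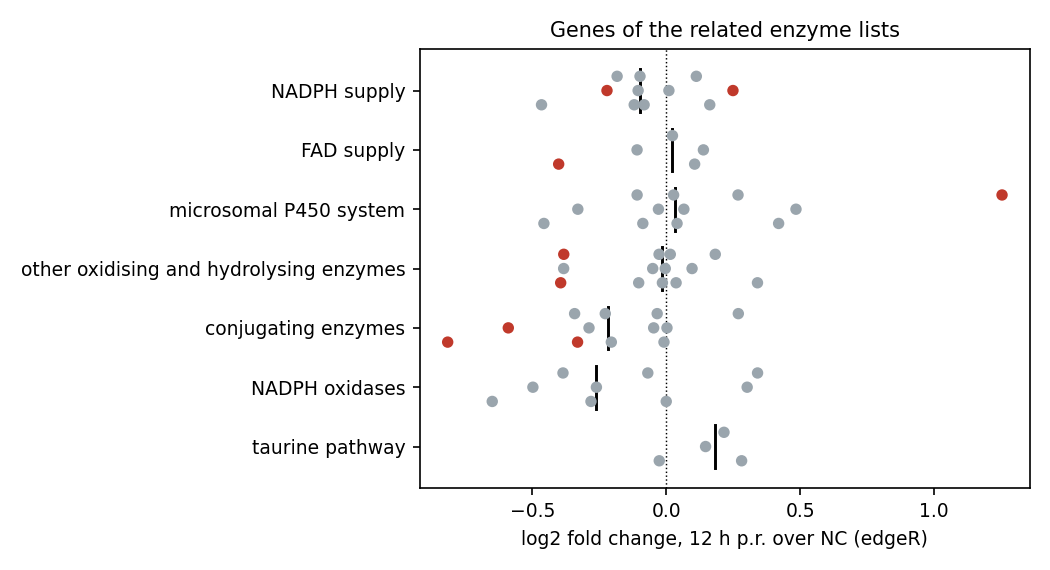
log2 fold change of 12 h p.r. over NC (edgeR) for each tested gene of the 7 related enzyme lists, with 1 point per gene, the list median as a black bar, and genes with an unadjusted p under 0.05 in red. The conjugating enzymes hold 3 red points, all below 0, and the NADPH oxidase and taurine lists hold 0.

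Marker genes of the cells that could carry these enzymes overlapped between the groups as lists. The connective tissue fibroblast markers summed to 778.2 to 972.8 CPM at 12 h p.r. and 795.1 to 1091 CPM in the NC rats. Of these, 1 of 6 genes was lower at an unadjusted p under 0.05 (edgeR), where 4.08% of all genes were. At the same threshold the tenocyte markers had 3 of 8 genes higher, where 5.44% of all genes were, and 0 lower. By sign alone, 4 of these 8 genes were above 0 and 4 below. The endothelial markers had 1 of 7 genes higher and 1 lower at an unadjusted p under 0.05, and the Schwann markers 1 of 5 lower. The leukocyte markers had 7 of 7 genes below 0, and the pericyte and smooth muscle markers 6 of 6 above 0. None of the genes in these 2 lists had an unadjusted p under 0.05. No defining marker of these lists that was in the table was at 0 in all rats. The part of such cell types in the level of *Fmo2* was not tested.

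The genes whose log2 CPM followed each member most closely over the 8 rats were different for each member. Pearson's r with *Fmo1* was 0.96 for *Hdac9*, a histone deacetylase, and 0.95 for *Setmar*. For *Fmo2* it was 0.97 for *Dlc1*, a GTPase-activating protein, and 0.95 for *Rnmt*, the mRNA cap methyltransferase. For *Fmo4* it was 0.95 for *Myrip* and 0.94 for *Abhd11*, and for *Fmo5* it was 0.96 for *Pebp1* and 0.95 for *Fbxo6*. These are the 2 highest of 13936 correlations per member, over 8 points that share their libraries and their groups, so values of this size describe these rats only. The changes of these 8 genes were small, with log2 fold changes between −0.34 (*Rnmt*) and 0.20 (*Fbxo6*), and none had an adjusted p value under 0.05 (edgeR). The r of *Hdac9* with *Fmo1* was 0.86 without 12 h p.r. replicate 2, and the other 7 kept an r of at least 0.908 without any 1 rat.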

How the data were processed

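Polyadenylated RNA of the right Achilles tendon of 8 rats (4 per group) was sequenced with a stranded kit. Per the labels, the authors used HISAT2 2.1.0 (genome Rnor_6.0) and featureCounts 1.6.3. Their deposited table gives unnormalized counts, in whole reads. The deposited FPKM values are counts over gene length and a factor per rat, which equaled the DESeq2 size factors computed from the counts. The authors' own comparison (DESeq2 1.30.1; fold changes and p-values) was not used. Genes were filtered with filterByExpr of edgeR 4.0.16, scaled by TMM factors, and compared with the quasi-likelihood test and Benjamini-Hochberg adjustment over 13937 genes (R 4.3.3). The unpaired test on all 8 rats was the main one. Exact permutation tests used log2(CPM + 0.5) over all 70 splits. Promoters were searched on both strands with Python. Total counts ran from 7350509 to 12951397. The sources used here do not pair the rats, and p-values measure the spread between these animals.

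The scripts were tested on simulated data with known changes. The members and lists were chosen with earlier results of these data known. The genes named are the members, other family genes (some genes are not reported here), the 2 smallest unadjusted p-values under 0.05 per related list, and the 2 genes most correlated with each member. *Gsta4*, *Por*, *Chd1l*, and *Prkab2* were named outside this rule, after their values or places were seen. Alternatives were DESeq2 1.42.0, relative log expression and upper-quartile factors, no filter beyond 1 count, a mean of at least 10 counts, limma 3.58.1 on log2(FPKM + 1) and log2(FPKM + 0.1) above a mean FPKM of 0.1, robust fitting, a replicate block, a muscle covariate, and each rat left out. The same replicate numbers stand for different rats, and the correlation of same-numbered rats' deviations from the group means was between −0.20 and 0.13.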

Additional observations from a re-analysis of the deposited data

How the results depend on the processing

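*Fmo2*, *Fmo4*, and *Fmo5* kept their sign and their side of the threshold in all 18 alternative fits, with adjusted p-values of *Fmo2* from 0.0528 to 0.773. *Fmo1* changed sign only without 12 h p.r. replicate 2 (0.10). Its mean difference of log2 CPM, −0.14, was 0.093 without that rat and ran from −0.30 to 0.093 with a rat left out. With 1 rat left out, the log2 fold changes ran from −0.26 to 0.10 for *Fmo1*, −1.44 to −0.95 for *Fmo2*, −0.64 to −0.34 for *Fmo4*, and 0.13 to 0.40 for *Fmo5*, and the mean log2 difference of *Fmo2* ran from −1.36 to −0.96 with exact permutation p from 0.0286 to 0.0857. The pair differences ran from 0.87 to 1.15 (*Fmo1* against *Fmo2*), −1.60 to −1.14 (*Fmo2* against *Fmo5*), and 0.19 to 0.46 (*Fmo1* against *Fmo4*, with exact p = 0.0286 without NC replicate 3), and 1 to 2 members had an unadjusted p under 0.05.

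Over all genes, edgeR called 0 higher and 1 lower at an adjusted p under 0.05, DESeq2 54 and 41, and the lower count was 0 with both limma fits, the replicate block, or any rat left out, and 2 with the muscle covariate. At an unadjusted p, 758 were higher and 568 lower (517 to 823 and 362 to 757 with a rat left out). Of the enzyme lists, DESeq2 called 1 gene lower. At an unadjusted p, 1 list gene was higher with DESeq2, no filter, both limma fits, or the block, and 4 were lower with the block, against 0 to 5 and 3 to 7 with a rat left out. The causes were not tested.

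With the replicate number as a block, which does not pair these rats (1 of 4 numbers correlated best with itself), the log2 fold change was −0.13 for *Fmo1*, −1.16 for *Fmo2* (adjusted p = 0.668), −0.49 for *Fmo4*, and 0.30 for *Fmo5*. The block changed no call of a member. In the log2 CPM of the family genes with enough reads, no rat stood out from its group (12 groups of 4 rats searched); other genes were not searched. Low counts limit *Fmo4*, *Fmo5*, *Fmo6*, and *Cyp2e1*, and 4 rats per group limit every p.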
